A study of Mus musculus with 4 samples.

Results

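Cells that carried Ehd3 transcripts but little Plvap and few arterial transcripts were taken as candidates for the endothelium of the glomerulus in developing mouse kidney. A cell was included when it had at least 500 genes, at most 20% mitochondrial UMIs (unique molecular identifiers, one per captured transcript), at least 2 of the 3 endothelial genes Pecam1, Cdh5 and Egfl7, at least 1 Ehd3 UMI, at most 2 Plvap UMIs and fewer than 2 of the 5 arterial genes Gja4, Gja5, Sox17, Bmx and Hey1. The rule chose 219 of 22838 cells that passed the first 2 filters. These Ehd3 cells numbered 93 in a transplanted kidney, 44 at E15.5, 25 in the E17.5 library and 57 at P0. The transplant was a C57BL/6N kidney of E12.5 that had spent 12 days in a host's epididymal fat pad. The host is given as C57BL/6N in one label and as an immunodeficient NOD mouse in another. The kidneys at E15.5 and P0 were from ICR mice and those at E17.5 from C57BL/6 mice, and all 4 groups carry a wild-type label. Each group was 1 library of the 10x 3′ v2 chemistry, so no difference between ages or between transplant and kidney has a replicate check, and how many animals were pooled is not given in the sources used here. By label, E15.5 and P0 share a strain, while E17.5 differs in strain from both. The transplant differs in strain from P0, and both it and E17.5 carry a C57BL/6 label, C57BL/6N for the transplant. Host, site and time of growth go with the transplant, and their parts cannot be told apart. Nor can the part of strain be told apart from theirs between the transplant and P0.

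The glomerular capillary is lined by a fenestrated endothelium that faces the podocytes across a shared basement membrane and is held in loops by mesangial cells. VEGF-A from podocytes acts through KDR, the main VEGF receptor of endothelium, and PDGF-B from the endothelium recruits the mesangial cells. EHD3 is a membrane-shaping ATPase of endocytic recycling whose kidney expression is known for the glomerular endothelium, EMCN is a sialomucin of capillary and venous endothelium, and PLVAP forms the diaphragms of fenestrae that mature glomerular endothelium largely lacks.

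The promoters of the 3 genes that name the cells, and of Gata5, a GATA transcription factor gene that was higher in them, are shown because the results turn on these genes. On GRCm38 the genes lie at chr17:73804841-73832093 (Ehd3), chr5:75932827-75979072 (Kdr), chr3:137341062-137431069 (Emcn) and chr2:180325088-180335503 (Gata5). The promoter windows, from RefSeq on GRCm38.p6, hold 300 bases in the direction of transcription: chr17:73804591-73804890 on the plus strand, chr5:75978406-75978705 on the minus strand, chr3:137340828-137341127 on the plus strand and chr2:180334630-180334929 on the minus strand. The start site used lies inside each window. The windows of Kdr and Gata5 lie within the gene spans above, so their start sites are not the outer ends of those spans. Capitals mark an exact match to CCGGAA, a sequence bound by ETS factors, on either strand. AGATAA, a sequence bound by GATA factors, was searched in the same way. Shorter or other forms of either site were not searched, so a window without a match can still hold such sites.
Ehd3: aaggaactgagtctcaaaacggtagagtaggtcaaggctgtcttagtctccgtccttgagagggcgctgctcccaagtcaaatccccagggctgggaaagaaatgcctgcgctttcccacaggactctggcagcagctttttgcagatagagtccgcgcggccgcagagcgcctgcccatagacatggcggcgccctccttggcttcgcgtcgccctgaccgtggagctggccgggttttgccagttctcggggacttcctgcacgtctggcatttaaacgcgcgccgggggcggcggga
Kdr: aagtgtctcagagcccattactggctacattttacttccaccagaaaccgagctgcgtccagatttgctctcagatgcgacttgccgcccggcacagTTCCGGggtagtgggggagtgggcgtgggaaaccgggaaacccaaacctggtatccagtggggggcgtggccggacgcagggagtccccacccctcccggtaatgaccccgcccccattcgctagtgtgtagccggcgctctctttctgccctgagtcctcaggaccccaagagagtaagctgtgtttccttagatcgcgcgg
Emcn: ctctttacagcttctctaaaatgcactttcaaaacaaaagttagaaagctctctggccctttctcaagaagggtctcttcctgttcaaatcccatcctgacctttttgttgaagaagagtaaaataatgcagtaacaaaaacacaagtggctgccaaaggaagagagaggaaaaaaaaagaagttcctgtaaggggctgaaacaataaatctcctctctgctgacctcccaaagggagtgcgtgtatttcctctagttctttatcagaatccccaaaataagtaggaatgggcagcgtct
Gata5: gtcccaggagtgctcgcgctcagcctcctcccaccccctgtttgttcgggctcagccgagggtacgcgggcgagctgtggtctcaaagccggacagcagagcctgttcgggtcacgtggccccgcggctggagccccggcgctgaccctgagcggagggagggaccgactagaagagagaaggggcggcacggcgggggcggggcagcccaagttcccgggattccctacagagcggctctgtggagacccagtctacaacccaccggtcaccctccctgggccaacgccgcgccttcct
Kdr alone of these 4 windows held a match to either sequence. It was CCGGAA on the opposite strand, with its first base at position 98 of the window, -153 relative to the window's start site. CCGGAA occurred in 14.9% of 32851 RefSeq promoter windows of the same length and AGATAA in 11.2%. The windows of Ehd3, Kdr and Gata5 had 61.7%, 60.7% and 69.7% G and C, and that of Emcn 41.0%.

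The label was checked against Kdr and Emcn, which the rule did not use. Summed over the Ehd3 cells, Kdr stood at 334 counts per 1000000 UMIs (CPM) in the transplant, 7.19 at E15.5, 478 in the E17.5 library and 296 at P0. Endothelium with at least 3 Plvap UMIs and fewer than 2 arterial genes, called Plvap endothelium here, had 328, 282, 438 and 382 CPM in the same order. Emcn stood at 1815 CPM in the transplant, 19.4 at E15.5, 1884 in the E17.5 library and 951 at P0. At E15.5 both genes were far under their level in the other 3 libraries, so the glomerular endothelial label was not borne out for the E15.5 cells. In the other 3 libraries Kdr stood near its level in the Plvap endothelium. On these counts Kdr by itself did not set the Ehd3 cells apart from other endothelium. There, 7 of the 44 cells had a Kdr UMI and 20 had neither Kdr nor Emcn.

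The E15.5 library was also the deepest. Its Ehd3 cells had a median of 30674 UMIs, against 5474 in the transplant, 5132 at E17.5 and 5441 at P0, and a threshold of 1 UMI selects more easily in a deeper cell. Of the 44 E15.5 cells, 38 were admitted on a single Ehd3 UMI and none had 10 or more. Cells with 10 or more Ehd3 UMIs numbered 44 in the transplant, 8 at E17.5 and 13 at P0. A panel of 8 endothelial genes outside the rule (Kdr, Emcn, Flt1, Cldn5, Esam, Ptprb, Tie1 and Eng), added after seeing the data, summed to a median of 5523 CPM per cell in the transplant, 41.2 at E15.5, 4851 in the E17.5 library and 3909 at P0. The panel reached 1000 CPM in 78 of 93 cells in the transplant, 1 of 44 at E15.5, 20 of 25 at E17.5 and 44 of 57 at P0, and 17 of the 219 cells lay near that level, between 500 and 2000 CPM. The 76 cells under it carried transcripts of other kidney cells, such as the collecting duct genes Aqp2 and Krt8. The 6 collecting duct markers summed to 1747 CPM in the transplant, 725 at E15.5, 2153 in the E17.5 library and 2404 at P0. Per cell, their median was 578 CPM in the transplant, 295 in the E17.5 library and 260 at P0. All kept cells of these libraries had medians of 159, 75.1 and 132 CPM. For E15.5 the median was 45.0 CPM, against 41.4 in all kept cells, so the sum there did not describe the typical cell. Stroma, podocyte and mesangial genes summed to 737, 630 and 562 CPM in the same E15.5 cells, beside 877, 1389 and 462 in all kept cells.

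**Figure D1:**
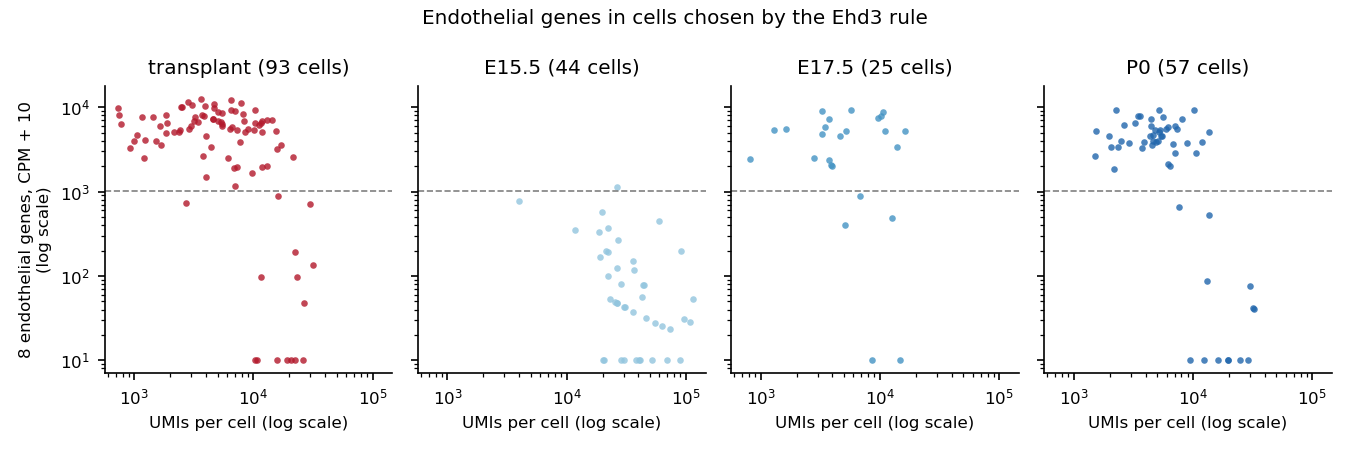
Each point is 1 Ehd3 cell, with its total UMIs on the horizontal log axis and the summed level of 8 endothelial genes (CPM, with 10 added) on the vertical log axis, 1 panel for each library, and the dashed line at 1000 CPM. In the E15.5 library 43 of 44 cells lie under the line, while in the transplant 78 of 93 lie above it.

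Because depth differed so, a second class is given beside the first. Each cell was thinned to 3000 UMIs, shallower cells were left out, and the same rule was applied to the thinned counts; levels were then taken from all UMIs of the chosen cells. These equal-depth Ehd3 cells numbered 123 in the transplant, 13 at E15.5, 46 in the E17.5 library and 95 at P0. The panel level was reached by all 123, 46 and 95 cells of the transplant, E17.5 and P0 and by 12 of 13 at E15.5. Kdr was detected in 116, 12, 45 and 94 of them in the order transplant, E15.5, E17.5 and P0, and Emcn in 123, 13, 45 and 95. In podocytes, which should lack both genes, 5 of 597 cells of the transplant (0.838%) had a Kdr UMI and 45 (7.54%) an Emcn UMI, at a median of 5092 UMIs per cell. Only 87 of the 277 equal-depth cells were also chosen on the deposited counts, 45 in the transplant, 1 at E15.5, 14 in the E17.5 library and 27 at P0; the others had more Plvap UMIs or a second arterial gene before thinning.

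As a share of cells, Ehd3 cells made up 1.41% of the transplant (95% Clopper-Pearson interval 1.14 to 1.72), 1.23% at E15.5 (0.898 to 1.65), 0.548% at E17.5 (0.355 to 0.808) and 0.704% at P0 (0.534 to 0.912). Equal-depth cells made up 2.59% of the transplant (2.15 to 3.08), 0.381% at E15.5 (0.203 to 0.650), 1.1% at E17.5 (0.808 to 1.47) and 1.29% at P0 (1.05 to 1.58). E15.5 had the second highest share on the deposited counts and the lowest at equal depth, and the transplant had the highest by both. Intervals here and below cover counting error only, and the dissociation and the capture of cells can set such shares. No Ehd3 cell barcode was shared between libraries, and 19 to 69 barcodes of all kept cells were shared by a pair of libraries.

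Most Ehd3 transcripts lay outside the Ehd3 cells. Of the Ehd3 UMIs in kept cells, the Ehd3 cells held 12.7% in the transplant, 5.85% at E15.5, 10.4% in the E17.5 library and 8.01% at P0. Cells with at least 2 of the 5 arterial genes, called arterial endothelium here, held 60.5%, 29.7%, 66.8% and 69.5% in the same order. An Ehd3 UMI was found in 59.8% of those arterial cells in the transplant, 39.8% at E15.5, 46.8% in the E17.5 library and 50.5% at P0. The shares of the Plvap endothelium with an Ehd3 UMI were 39.0%, 47.1%, 38.9% and 45.0%. Outside the endothelial gate they were 12.9%, 10.5%, 4.88% and 5.85%, and in podocytes 6.53%, 3.49%, 1.04% and 2.76%.

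**Figure D2:**
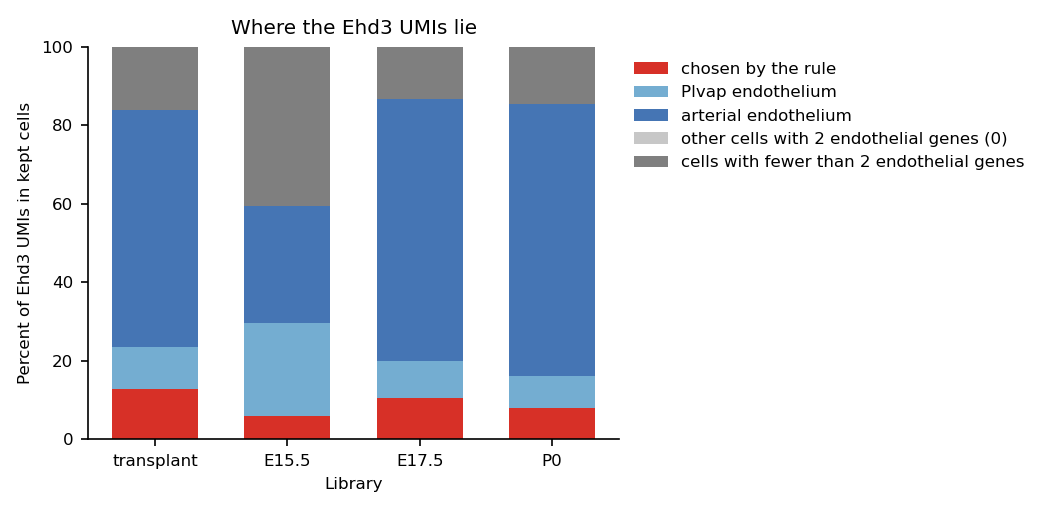
Bars divide all Ehd3 UMIs of the kept cells of a library (percent, vertical axis) among cell groups, with the Ehd3 cells chosen by the rule at the foot. The arterial endothelium holds the widest band in the transplant, at E17.5 and at P0 (60.5% to 69.5%), and at E15.5 cells with fewer than 2 endothelial genes hold 40.6%.

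Cells just inside and just outside the thresholds were compared without a test. Cells with 1 Ehd3 UMI had a Kdr level of 58.1 CPM in the transplant (26 cells), 3.69 at E15.5 (38 cells), 144 at E17.5 (10 cells) and 71.6 at P0 (22 cells). Otherwise eligible cells with 0 Ehd3 UMIs had 97.6, 9.81, 100.2 and 45.3 CPM. Cells with 10 or more Ehd3 UMIs had 627 CPM in the transplant, 810 at E17.5 and 761 at P0. At the Plvap threshold, cells with 2 Plvap UMIs had 383 CPM of Kdr in the transplant (11 cells), 512 at E17.5 (3 cells) and 478 at P0 (8 cells), and those with 3 had 890.0 (8 cells), 462 (1 cell) and 528 (9 cells). At the arterial threshold, cells with 1 arterial gene had 427 CPM of Kdr in the transplant, 579 at E17.5 and 427 at P0, and those with 2 had 477, 611 and 686.

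The Ehd3 cells were next set against the Plvap endothelium of the same libraries, with the 4 libraries, which differ in age, strain and site, as the replicates. On the deposited counts, 623 of 10095 genes were higher in the Ehd3 cells (6.17% of those tested) and 321 lower (3.18%), at an adjusted p below 0.05 in edgeR's quasi-likelihood test with Benjamini-Hochberg adjustment and library as a block. Among genes called with 1 direction in all 4 libraries and a mean of at least 20 CPM, the highest fold was that of Dlk1 (log2 difference 5.69, adjusted p = 0.0063). Penk, the proenkephalin gene, and Scube3, which encodes a secreted protein, were also among the 12 highest (3.68 and 3.80). So were Plet1, Scnn1b, Aqp2, Rhcg, Cldn4, Sct, Spink8 and Lhx1. Of the collecting duct list, 3 of 4 genes tested were called higher and none lower (median 3.25 against -0.01 over all genes): Aqp2, Krt8 and Krt18. Aqp2, the water channel of principal cells, stood at 235 CPM in the Ehd3 cells against 11.2 in the Plvap endothelium of the transplant, 32.1 against 0.95 at E15.5, 239 against 4.48 at E17.5 and 81.8 against 29.8 at P0. Its log2 difference was 3.74 ± 0.62 (SE; adjusted p = 0.0106 by edgeR's quasi-likelihood test), and the call was lost without the transplant (adjusted p = 0.066). The tight junction gene Cldn4 differed by 3.64 ± 0.44 (adjusted p = 0.00408). With cells classed at equal depth Aqp2 was too low to be tested, and Cldn4 could not be tested against the Plvap endothelium either. In that class 149 of 8722 genes were higher (1.71%) and 112 lower (1.28%). Of the genes called higher, 33 were shared by both classes, which is 5.30% of the calls on deposited counts and 22.1% of those at equal depth; of the genes called lower 69 were shared, 21.5% and 61.6%.

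Of a list of 12 genes known for glomerular endothelium, 4 of 11 tested were called higher than in the Plvap endothelium on deposited counts, beside 6.17% of all genes, and none lower, with a median log2 difference of 1.49 against -0.01 over all genes. At equal depth 7 of 10 were called higher, beside 1.71% of all genes, and none lower, with a median of 1.47 against 0.01. Plat, Gata5 and Tbx3 were called higher in both classes. The list was drawn up with earlier results of these data known.

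Plat, which encodes tissue plasminogen activator, had 244 CPM in equal-depth Ehd3 cells against 106 in the Plvap endothelium of the transplant, 33.7 against 19.4 at E15.5, 264 against 85.5 at E17.5 and 790 against 177 at P0. It was higher in the Ehd3 cells of all 4 libraries, by 1.64 ± 0.17 on the log2 scale (adjusted p = 0.000249, edgeR's quasi-likelihood test). Podocytes carried still more Plat, 1924 CPM in the transplant, 536 at E15.5, 942 in the E17.5 library and 908 at P0, and the part of podocyte RNA in the Plat level of the Ehd3 cells was not tested. Gata5 had 61.7 against 18.8 CPM in the transplant, 6.74 against 1.62 at E15.5, 20.7 against 0 at E17.5 and 27.6 against 0.309 at P0, a log2 difference of 2.84 ± 0.51 (adjusted p = 0.00705). Gata5 UMIs were found in 59 of 123, 2 of 13, 12 of 46 and 22 of 95 equal-depth Ehd3 cells in the order transplant, E15.5, E17.5 and P0, and in at most 3 podocytes of any library. Tbx3, a T-box transcription factor gene, differed by 1.96 ± 0.21 (adjusted p = 0.000269) and was 171 against 62.6 CPM in the transplant and 62.4 against 13.3 at P0. On deposited counts Plat differed by 1.49, Gata5 by 3.02 and Tbx3 by 2.19 (adjusted p = 0.0169, 0.0167 and 0.00487). There the call of Plat was lost without E17.5, P0 or the transplant (adjusted p = 0.059, 0.10 and 0.080) and that of Gata5 without P0 (adjusted p = 0.056), while that of Tbx3 held without any 1 library.

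Pi16, Hecw2, Mapt and Kdr of that list were called at equal depth and not on the deposited counts, and Lpl, the lipoprotein lipase gene, was called on the deposited counts (1.79, adjusted p = 0.00965) and not tested at equal depth. Pi16, which encodes a secreted peptidase inhibitor family protein, had 80.9 against 28.5 CPM in the transplant, 2.7 against 1.62 at E15.5, 19.1 against 1.46 at E17.5 and 126 against 6.49 at P0, and differed by 2.77 ± 0.40 (adjusted p = 0.00162, edgeR). Hecw2, a ubiquitin ligase gene, differed by 1.29 ± 0.22 (adjusted p = 0.00471), although at E15.5 it was lower, 25.6 against 40.4 CPM. Mapt, which encodes the microtubule protein tau, differed by 1.67 ± 0.34 (adjusted p = 0.0163) with no UMI in either group at E15.5. Kdr had 655 against 379 CPM in the transplant, 476 against 323 at E15.5, 734 against 417 at E17.5 and 673 against 427 at P0, higher in all 4 libraries by 0.74 ± 0.10 (adjusted p = 0.00108). With a second random thinning Kdr no longer passed (adjusted p = 0.11). Emcn differed by 0.57 ± 0.17 (adjusted p = 0.107), with 2855 against 1967 CPM in the transplant, 499.99 against 687 at E15.5, 1527 against 809 at E17.5 and 1867 against 907 at P0. It was higher in the Ehd3 cells of 3 libraries and lower at E15.5; without the E15.5 library the difference was 0.83 (adjusted p = 0.0012).

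**Figure D3:**
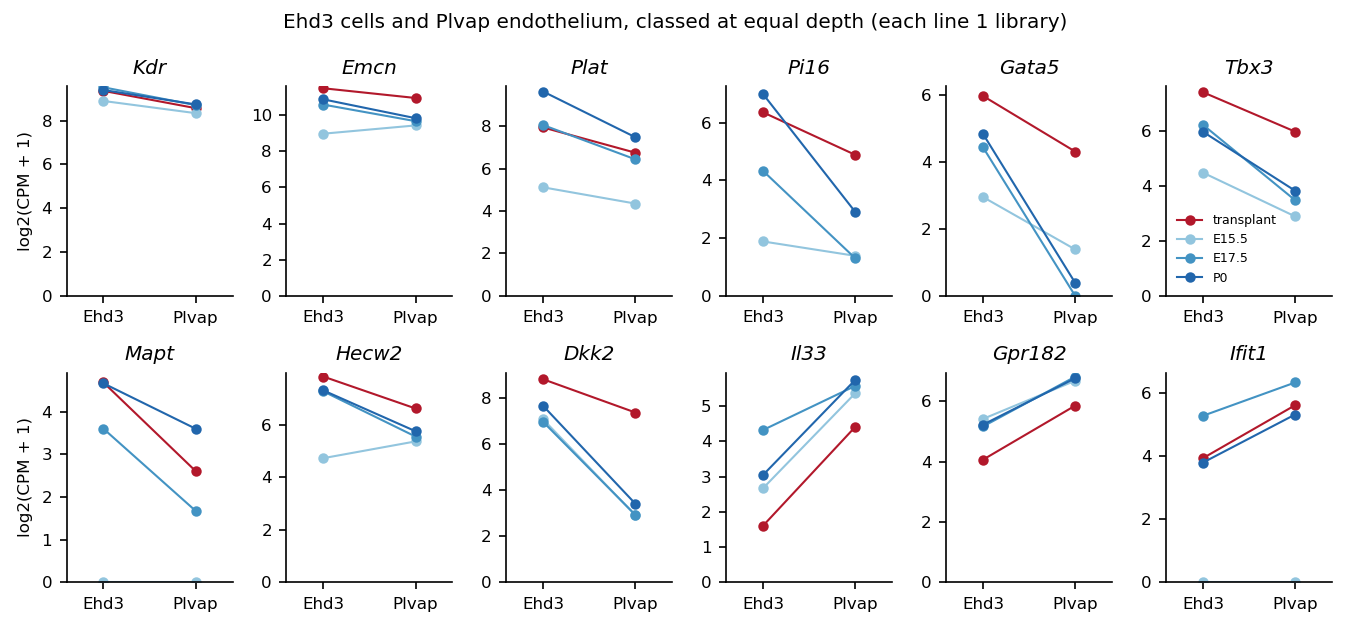
Each panel shows 1 gene as log2(CPM + 1) in equal-depth Ehd3 cells (left) and in the Plvap endothelium (right), with a line for each of the 4 libraries. Lines of Plat, Pi16, Gata5, Tbx3 and Dkk2 fall to the right in all 4 libraries, those of Il33 and Gpr182 climb, and Emcn and Hecw2 go the other way at E15.5.

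Beyond that list and the genes of the rule, the highest folds at equal depth, among genes called with 1 direction in all 4 libraries and a mean of at least 20 CPM, were those of Dlk1, Dkk2, Meg3, Gap43, Fam81a, Tnfrsf11b, Itgb5, Tmem26, Adamts5, Nostrin and Plscr1. Dlk1, an imprinted gene for a membrane protein of the Notch ligand family, had 123 against 0 CPM in the transplant, 10.8 against 6.46 at E15.5, 327 against 1.46 at E17.5 and 768 against 3.09 at P0, and was called higher in both classes (7.50 ± 0.46 at equal depth, adjusted p = 2.17e-06 by edgeR). It was carried by a minority of cells: 8 of 123, 5 of 13, 12 of 46 and 26 of 95 in the order transplant, E15.5, E17.5 and P0, and 1 cell of P0 held 25% of that library's Dlk1 UMIs. Dkk2, which encodes a secreted modulator of Wnt signalling, had 444 against 163 CPM in the transplant, 132 against 6.46 at E15.5, 122 against 6.58 at E17.5 and 199 against 9.58 at P0 (2.94 ± 0.39, adjusted p = 0.00105). At E15.5 a single cell held 58.2% of the Dkk2 UMIs. The imprinted noncoding gene Meg3 differed by 2.63, the integrin gene Itgb5 by 2.20, the protease gene Adamts5 by 2.16 and Nostrin, whose product controls the trafficking of endothelial nitric oxide synthase, by 2.06, each higher in all 4 libraries. Gap43, a growth cone protein gene, differed by 2.60, Fam81a by 2.45, Tnfrsf11b, the osteoprotegerin gene, by 2.26, Tmem26 by 2.10 and Plscr1, a phospholipid scramblase gene, by 2.01, also in all 4 libraries. On deposited counts the calls of Dkk2 (adjusted p = 0.0193) and Nostrin (adjusted p = 0.0117) were lost without P0 (adjusted p = 0.088 and 0.068), and that of Dkk2 without E17.5 too (adjusted p = 0.071).

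Receptors, ligands and transcription factors were called in part at equal depth, where 1.71% of all genes were higher and 1.28% lower. Nrp1, a VEGF co-receptor gene, was higher at equal depth by 1.01 (adjusted p = 0.00112, edgeR) and Tek, the angiopoietin receptor gene, lower (-1.07 on the log2 scale, adjusted p = 0.00129). Of the 10 VEGF and Tie genes tested, 3 were higher and 1 lower. Of the 8 genes for signals to mesangium and podocyte, Pdgfb (0.66, adjusted p = 0.0328) and Hbegf (0.73, adjusted p = 0.0292) were higher and none lower; Pdgfb did not pass with the second thinning (adjusted p = 0.24). Of 10 Notch pathway genes, Dll4 (0.79) and Efnb2 (0.88) were higher and none lower. Of 22 endothelial transcription factor genes 5 were higher, among them Ets2, Gata5 and Tbx3, and 4 lower (Sox7, Irx3, Irx5 and Nr2f2), with a median of 0.06 beside 0.01 over all genes. Nr2f2, known for venous identity, had 41.8 against 151 CPM in the transplant, 156 against 192 at E15.5, 96.9 against 215 at E17.5 and 47.0 against 129 at P0 (-1.15 ± 0.20, adjusted p = 0.0056). Of the basement membrane genes Col4a1, Col4a2 and Nid2 of 12 were higher, and of the 14 TGF-beta and BMP genes none was called.

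On deposited counts, where 6.17% of all genes were higher and 3.18% lower, the same lists had other balances. Of the 22 transcription factor genes 2 were higher, Gata5 and Tbx3, and 9 lower, with a median of -1.21 against -0.01 over all genes. Of 12 VEGF and Tie genes 1 was higher, Vegfa, and 2 lower, Nrp2 and Ptprb (median -1.38). Of the 8 signals to mesangium and podocyte none was higher and Sema6a was lower (median -0.26). Of 11 Notch pathway genes Jag1 and Heyl were higher and none lower. Of 12 basement membrane genes Lama5 and Lamb1 were higher and Lama4 lower, and of the 14 TGF-beta and BMP genes Smad1 was lower.

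Lower in the Ehd3 cells than in the Plvap endothelium were the alarmin gene Il33, the receptor gene Gpr182, the coagulation factor gene F8, the ectonucleotidase gene Entpd1 and interferon genes. Il33 had 2.06 against 20.4 CPM in the transplant, 5.39 against 40.4 at E15.5, 19.1 against 46.8 at E17.5 and 7.3 against 52.8 at P0 (-2.40 ± 0.30, adjusted p = 0.000652, edgeR). Gpr182 had 15.8 against 57, 41.8 against 102, 34.9 against 112 and 36.5 against 108 CPM in the same order (-1.56 ± 0.15, adjusted p = 0.000188). On deposited counts the call of Il33 was lost without E17.5, P0 or the transplant (adjusted p = 0.071, 0.11 and 0.097) and that of Gpr182 without P0 (adjusted p = 0.064). Of the interferon response list 8 of 19 genes were lower on deposited counts (median -1.17) and 8 of 20 at equal depth (median -0.60), and none was higher in either. Over all genes, 3.18% and 1.28% were lower, with medians of -0.01 and 0.01. Isg15, a ubiquitin-like modifier induced by interferon, had 69.9 against 179 CPM in the transplant, 232 against 440 at E17.5 and 169 against 320 at P0, with no UMI at E15.5 in either group (-1.03 ± 0.14, adjusted p = 0.00129). Of the other EHD genes, Ehd4 was lower in both classes (-0.84 ± 0.14 at equal depth, adjusted p = 0.00471). Ehd2 was lower on deposited counts (-1.49, adjusted p = 0.039, but 0.12 without P0 or without the transplant) and 0.21 at equal depth (adjusted p = 0.603), and Ehd1 was -0.09 there (adjusted p = 0.884).

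Against the arterial endothelium, 592 of 10607 genes were higher on deposited counts (5.58%) and 372 lower (3.51%). At equal depth 212 of 8830 were higher (2.4%) and 317 lower (3.59%). Of the genes called higher 4 were shared by both classes, 0.676% and 1.89% of the calls, and 9 genes were called higher on deposited counts and lower at equal depth; of those called lower 105 were shared, 28.2% and 33.1%. At equal depth Eln, the elastin gene, had 35.6 against 596 CPM in the transplant, 2.7 against 178 at E15.5, 4.77 against 804 at E17.5 and 8.92 against 751 at P0 (-5.27 ± 0.33, adjusted p = 4.96e-06, edgeR's quasi-likelihood test), and Cxcl12, a chemokine gene, differed by -4.47. Fbln5 and Fbln2, which encode fibulins of the extracellular matrix, differed by -5.01 and -4.29, each lower in all 4 libraries. Of 10 Notch pathway genes 6 were lower, among them Jag1 (-3.01). Since cells with 2 arterial genes on the thinned counts were left out of the Ehd3 cells, differences in arterial genes are partly set by the choice of cells. Cell division genes were higher at equal depth, 15 of 20 with a median of 0.76, and 0 of 20 on deposited counts. Mki67, the Ki-67 gene, had 131 against 51.9 CPM in the transplant, 222 against 80.9 at E15.5, 172 against 113 at E17.5 and 71.3 against 59.0 at P0 (0.95 ± 0.19, adjusted p = 0.0112).

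Most of the glomerular list was not called between the Ehd3 cells and the arterial endothelium. Many equal-depth Ehd3 cells had at least 2 arterial genes before thinning. These were 58 of 123 in the transplant, 6 of 13 at E15.5, 20 of 46 at E17.5 and 50 of 95 at P0. Their part in the equal-depth result was not tested. On deposited counts 1 of 12 genes was higher, Lpl, and none lower, with a median of -0.43 against -0.02 over all genes. Of all genes, 5.58% were higher and 3.51% lower there, and 2.4% and 3.59% at equal depth. At equal depth the median was 0.39 against 0.001 over all genes, and 3 of 11 genes were higher and 1 lower: Emcn (0.56 ± 0.10, adjusted p = 0.00735, edgeR), Hecw2 (0.76, adjusted p = 0.00835) and Kdr (0.35, adjusted p = 0.0426) were higher, and Sost, an inhibitor of Wnt and BMP signalling, was lower (-1.97, adjusted p = 0.0224). Kdr did not pass with the second thinning (adjusted p = 0.6). Plat differed by 0.40 (adjusted p = 0.134), Gata5 by 0.66 (adjusted p = 0.171), Pi16 by -0.05 (adjusted p = 0.95), Dkk2 by -0.41 (adjusted p = 0.336) and Dlk1 by 0.82 (adjusted p = 0.173). Pi16 had 80.9 CPM in the Ehd3 cells against 77.2 in the arterial endothelium of the transplant, and 126 against 95.4 at P0.

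Across ages, the glomerular list stood higher in the Ehd3 cells of P0 than of E15.5. Ratios are of summed CPM with exact conditional binomial 95% intervals. At equal depth 9 of 12 genes were at least 2-fold higher at P0 and 1 lower, with a median log2 ratio of 2.21 against 0.04 over all genes, of which 17% were at least 2-fold higher and 12.1% lower. On deposited counts 9 of 11 were higher and none lower, with a median of 2.70 against -0.01 over all genes, of which 15.3% were higher and 13.3% lower. The E15.5 side rests on 13 cells at equal depth, and on the deposited counts on cells that mostly lacked the endothelial panel. Markers of other cells moved as well: 7 of 8 podocyte genes were at least 2-fold higher at P0 (median log2 ratio 2.12), and their sum was 814 CPM at P0 against 290 at E15.5 in equal-depth cells. Their part in the result was not tested.

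Plat was at 790 CPM in equal-depth Ehd3 cells of P0 and 33.7 CPM at E15.5, 23.5-fold higher (15.8 to 36.4), with 264 CPM at E17.5. On deposited counts it was 19.6-fold higher (14.8 to 26.3). Pi16 was at 126 CPM at P0, 2.7 CPM at E15.5 from 2 UMIs, and 19.1 CPM at E17.5, a ratio of 46.6 (12.7 to 388). Gata5 was 4.09-fold higher at P0 (1.59 to 13.4) at 27.6 CPM against 6.74, and Hecw2 6.17-fold (3.85 to 10.5) at 158 against 25.6. Tbx3 was 2.89-fold higher at equal depth (1.67 to 5.32) and 0.692 of the E15.5 level on deposited counts (0.459 to 1.01). Emcn was 3.73-fold higher at equal depth (3.34 to 4.18) and Kdr 1.41-fold (1.25 to 1.61). The same ratios on the deposited counts were 49.1 and 41.2, where the E15.5 cells carried few UMIs of either gene. Sost, with 25 UMIs at P0 and none at E15.5, was at least 5.01-fold higher from a floor of 3 counts. Cyp26b1, a retinoic acid degrading enzyme, ran the other way at equal depth, 30.8 CPM at P0 against 68.7 at E15.5 and 2.23-fold lower (1.44 to 3.49), and was higher on deposited counts, 36.8 against 5.53 CPM.

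Of 8 flow response genes 6 were at least 2-fold higher at P0 than at E15.5 at equal depth and none lower (median 2.27), beside 17% and 12.1% of all genes; on deposited counts 7 of 8 were higher (median 4.90), beside 15.3%. Klf2, a transcription factor induced by laminar flow, was at 1603 CPM at P0 against 315 at E15.5, with 1851 at E17.5, and Klf4 at 890.1 against 63.3, with 679.9 at E17.5. Edn1, the endothelin-1 gene, was at 141 against 8.09 CPM. Of the signals to mesangium and podocyte 6 of 8 were higher and none lower (median 1.65): Hbegf was at 259 CPM at P0 against 35.0 at E15.5, and Pdgfd had 30 UMIs at P0 and none at E15.5. Of 11 genes of lipid and solute transport 7 were higher and none lower, of 14 TGF-beta and BMP genes 7 were higher and 1 lower, and of 10 Notch genes 4 were higher and none lower, Dll4 at 190 against 43.1 CPM among them. Of 11 VEGF and Tie genes 4 were higher and 1 lower (median 0.50). On deposited counts 5 of 8 signals to mesangium and podocyte, 8 of 11 transport genes, 8 of 14 TGF-beta and BMP genes, 5 of 10 Notch genes and 9 of 12 VEGF and Tie genes were higher, with 1 lower in each of the last 3 lists. None of 20 cell division genes was at least 2-fold higher at P0 and 9 were lower (median -0.85), and on deposited counts 7 were lower and none higher (median -0.87). Mki67 was at 71.3 CPM at P0 against 222 at E15.5, 3.12-fold lower (2.39 to 4.08), with 172 at E17.5, and Top2a was 4.04-fold lower. An Mki67 UMI was present in 22 of 95 cells at P0, 10 of 13 at E15.5 and 23 of 46 at E17.5. The median depths of these cells were 10381, 42323 and 10871.5 UMIs in that order.

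Interferon, antigen presentation and stress genes gave the widest shifts between P0 and E15.5. All 20 interferon genes measured were at least 2-fold higher at P0 at equal depth (median 3.66), as were all 9 class I antigen presentation genes (3.01) and all 18 genes of the dissociation stress list (3.43). On deposited counts the counts were 14 of 15, 8 of 9 and 16 of 18. Over all genes, 17% were at least 2-fold higher at equal depth and 15.3% on deposited counts. Isg15 had 209 UMIs at P0, 169 CPM, and none at E15.5, at least 41.9-fold higher, and stood at 232 CPM at E17.5. H2-D1, a class I heavy chain gene whose reads can be shared with its near-identical family, was at 1117 CPM at P0 against 33.7 at E15.5, with 426 at E17.5. Hspa1a, a heat shock gene with a near-identical copy in Hspa1b, was at 2322 CPM at P0, 0 at E15.5 and 140 at E17.5, at least 574-fold higher at P0. Atf3, a stress-induced transcription factor, was at 1091 CPM at P0, 17.5 at E15.5 and 226 at E17.5. Hspa1a was detected in 314 of 471 podocytes at P0 (66.7%) and in 2 of 86 at E15.5 (2.33%), so it moved with the library in another cell type too. Isg15 was detected in 58 of 95 equal-depth Ehd3 cells of P0 (61.1%) and in 7 of 471 podocytes (1.49%), at median depths of 10381 and 4936 UMIs.

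**Figure D4:**
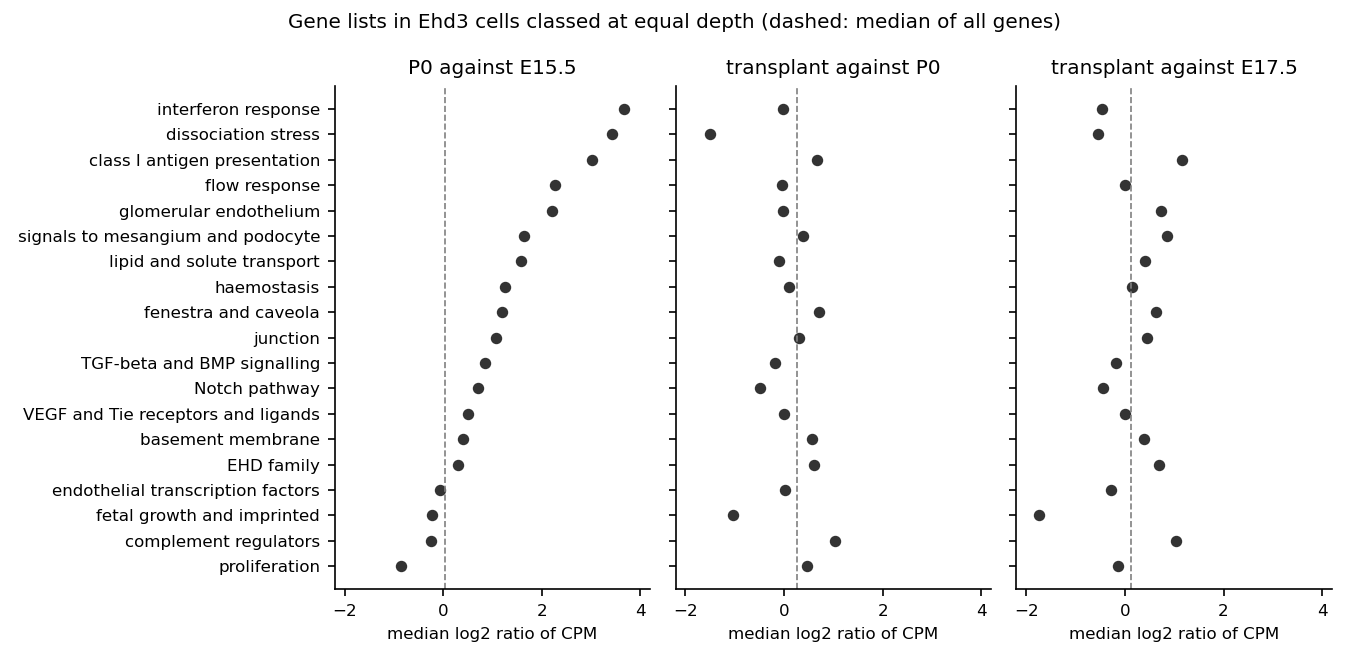
Points give the median log2 ratio over the genes of each of 19 lists in equal-depth Ehd3 cells, in 3 comparisons of libraries, with the dashed line at the median of all genes. For P0 against E15.5 the interferon (3.66), stress (3.43) and class I (3.01) lists lie farthest right, and for the transplant against P0 the stress (-1.51) and imprinted (-1.03) lists lie farthest left.

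The transplant was set against P0 and against E17.5, and these comparisons share the transplant library, as the first shares P0 with the comparison of ages. Of the glomerular list at equal depth, 3 of 12 genes were at least 2-fold higher in the transplant than at P0 and 4 lower, with a median of -0.01 against 0.27 over all genes, of which 13.7% were higher and 6.02% lower. Against E17.5, 5 were higher and 2 lower, with a median of 0.73 against 0.12 over all genes, of which 12.3% were higher and 7.41% lower. On the deposited counts the shares over all genes were 17.5% and 7.53% against P0, where 4 of 11 glomerular genes were higher and 2 lower, and 20.6% and 10.4% against E17.5, where 2 were higher and 1 lower. Gata5 was at 61.7 CPM in the transplant against 27.6 at P0 and 20.7 at E17.5, 2.24-fold (1.49 to 3.43) and 2.99-fold (1.66 to 5.83) higher. Tbx3 was at 171 CPM against 62.4 and 74.7, 2.75-fold and 2.30-fold higher. Kdr was at 655 CPM in the transplant, 673 at P0 and 734 at E17.5, and Emcn at 2855, 1867 and 1527. Plat was at 244 CPM in the transplant against 790 at P0, 3.24-fold lower (2.87 to 3.67), and against 264 at E17.5, a ratio of 0.926 (0.768 to 1.12). Cyp26b1 was at 4.11 CPM in the transplant, 7.49-fold lower than at P0 and 16.6-fold lower than at E17.5. Sost had no UMI in the transplant and 25 at P0, at least 9.85-fold lower.

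Imprinted fetal growth genes were lower in the transplant. Of 15 genes, 8 were at least 2-fold lower than at P0 and none higher (median -1.03), and 12 were at least 2-fold lower than at E17.5 and none higher (median -1.74). Over all genes at equal depth, 6.02% were at least 2-fold lower than at P0 and 7.41% than at E17.5. H19, a noncoding imprinted gene, was at 30.2 CPM in the transplant, 1786 at E15.5, 1712 in the E17.5 library and 1519.9 at P0, 50.4-fold lower than at P0 (37.4 to 69.6) and 56.8-fold lower than at E17.5 (42.0 to 78.6). Igf2, a fetal growth factor gene, was at 65.1 CPM in the transplant, 908 at E15.5, 1943 in the E17.5 library and 1434 at P0, 22-fold (17.9 to 27.4) and 29.8-fold (24.2 to 37.2) lower. An H19 UMI was present in 25 of 123 cells in the transplant, 13 of 13 at E15.5, 43 of 46 at E17.5 and 88 of 95 at P0. Peg3 was 7.09-fold lower than at P0 and 5.23-fold lower than at E17.5, and Dlk1 6.23-fold and 2.65-fold lower. On deposited counts 8 and 11 of 15 were lower, beside 7.53% and 10.4% of all genes, and H19 was 18.5-fold lower than at P0. Podocytes moved the same way: H19 was detected in 34 of 597 in the transplant (5.70%) and 102 of 471 at P0 (21.7%), at median depths of 5092 and 4936 UMIs.

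Stress genes were lower in the transplant than at P0, 11 of 18 with none higher (median -1.51), beside 6.02% of all genes lower. Atf3 was at 14.4 CPM against 1091 at P0, 75.8-fold lower (49.4 to 123), and Hspa1a at 93.9 against 2322, 24.7-fold lower. Edn1 was at 6.86 CPM against 141, 20.6-fold lower (10.9 to 43.7). Higher in the transplant were Sox18, a transcription factor gene of vascular development, at 253 CPM against 38.9 at P0 and 42.9 at E17.5 (6.50-fold and 5.90-fold), Cd300lg, a glycocalyx protein gene of capillary endothelium, at 313 against 71.3 and 87.4 CPM (4.39-fold and 3.59-fold), Nostrin at 289 against 101 and 95.3 CPM, and the collagen IV gene Col4a1 at 1718 against 875 and 975 CPM. Class I antigen presentation genes were at least 2-fold higher for 3 of 9 against P0 and 5 of 9 against E17.5, with none lower. Over all genes the shares higher were 13.7% and 12.3%. Of 20 interferon genes, 4 were lower than at P0 and 7 lower than at E17.5, and none was higher. Over all genes the shares lower were 6.02% and 7.41%.

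Among the genes with the highest ratios in the transplant were those of class II antigen presentation, which rested on few cells. Cd74, the class II invariant chain, was at 251 CPM from 366 UMIs in equal-depth cells of the transplant, with none at P0 or E17.5, at least 103-fold and 52.7-fold higher. A single cell held 259 of those UMIs, 70.8%. The same holds for H2-Aa, a class II chain gene, at 80.2 CPM, where 1 cell held 82.9%. A Cd74 UMI was found in 27 of 123 equal-depth Ehd3 cells of the transplant (22%), at a median depth of 9920 UMIs. In podocytes, which should lack the gene, 126 of 597 cells had one (21.1%), at a median of 5092 UMIs. Of the Ehd3 cells chosen on deposited counts, 33 of 93 had one (35.5%, interval 25.8 to 46.1), at a median of 5474 UMIs. The part of stray transcripts in these shares was not tested. On deposited counts Cd74 was at 455 CPM, with 50.4% of its UMIs in 1 cell. Gata3, a GATA transcription factor gene, was at 51.4 CPM from 75 UMIs in 13 of 123 cells of the transplant, with none at P0, at least 21.1-fold higher, and 16.2-fold (4.33 to 136) above E17.5, where it had 2 UMIs. Myl9, a myosin light chain gene of contractile cells, was at 149 CPM in 30 cells of the transplant, 13.0 at P0 and 3.18 at E17.5 from 2 UMIs, ratios of 11.5 (6.94 to 20.5) and 47.0 (12.9 to 391). Igfbp7, an IGF-binding protein of the vessel wall, was at 2650 CPM in the transplant, 184 at P0 and 148 at E17.5, 14.4-fold (12.6 to 16.5) and 17.9-fold (14.6 to 22.3) higher, and present in 114 of 123 cells with at most 5.79% of its UMIs in 1 cell. On deposited counts its ratio to P0 was 1.5 (1.37 to 1.65). Podocytes of the transplant held 9882 CPM of Igfbp7, against 3963 at P0 and 6462 at E17.5. Summed markers of other cell types differed in both directions between the equal-depth cells of the transplant and P0. Erythroid genes summed to 706 CPM in the transplant against 10.5 at P0, and 1 cell held 62.6% of the transplant's Hba-a1 UMIs. Mesangial and pericyte genes summed to 433 against 83.5 CPM, with 6 of 7 at least 2-fold higher, and proximal tubule genes to 478 against 101 CPM, with 6 of 6. Over all genes, 13.7% were at least 2-fold higher and 6.02% lower. Capillary and venous endothelial genes summed to 3055 against 533 CPM, with 2 of 7 higher and 1 lower. Igfbp7 is a gene of that list and gave 2650 and 184 CPM of these sums, most of the sum in the transplant. Leukocyte markers summed to 81.6 against 7.3 CPM, with Cd3e at 0 in the transplant. Podocyte genes summed to 642 against 814 CPM, stroma genes to 80.2 against 93.2 and arterial genes to 479 against 719. The part of these cell types in the ratios was not tested.

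**Figure D5:**
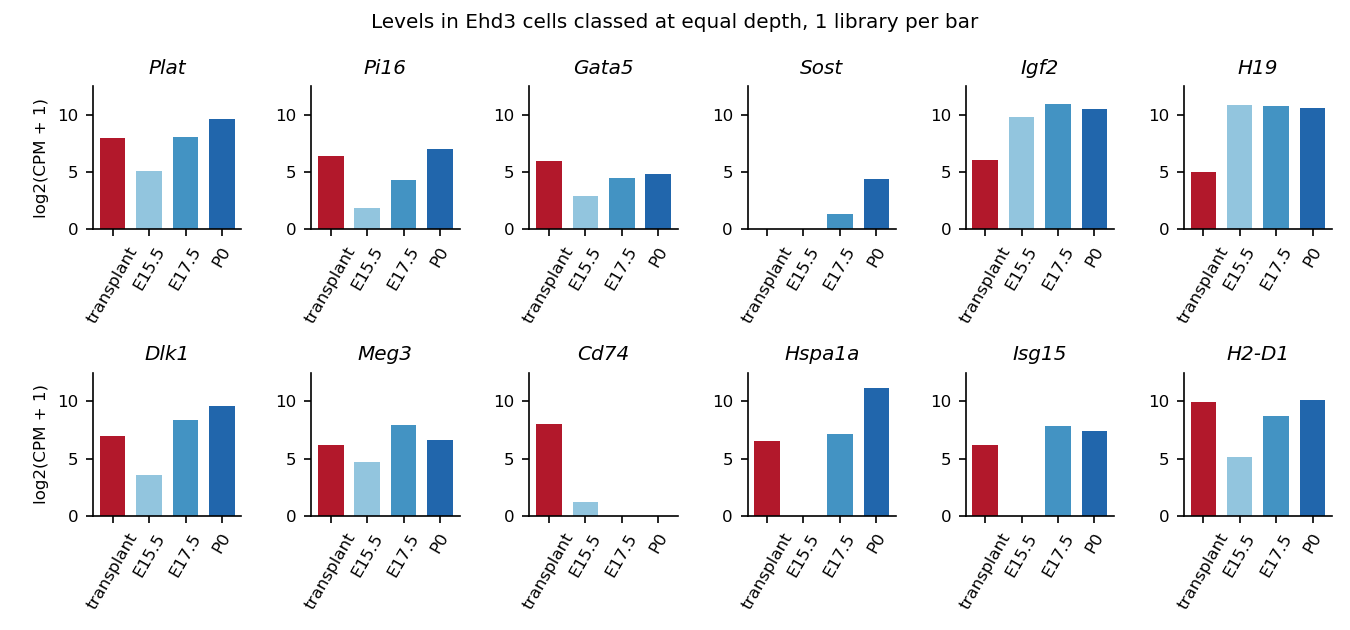
Bars give the level of 12 genes in equal-depth Ehd3 cells as log2(CPM + 1), 1 panel for each gene, with the transplant left of E15.5, E17.5 and P0. Igf2 and H19 are lowest in the transplant (65.1 and 30.2 CPM), Plat and Hspa1a are highest at P0 (790 and 2322 CPM), and Cd74 is high in the transplant alone, where 1 cell holds 70.8% of its UMIs.

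Y-linked transcripts also differed between the libraries. A UMI of Ddx3y, Eif2s3y, Uty or Kdm5d was found in 60 of 93 Ehd3 cells of the transplant (64.5%), 27 of 44 at E15.5 (61.4%), 0 of 25 at E17.5, which allows a share of up to 12%, and 0 of 57 at P0, which allows up to 5.26%. Among equal-depth Ehd3 cells the numbers were 97 of 123 in the transplant, 5 of 13 at E15.5, 0 of 46 at E17.5 and 0 of 95 at P0. These were counted on all UMIs of the cells, at median depths of 9920, 42323, 10871.5 and 10381 UMIs. Sex therefore goes with each of the 3 comparisons of libraries and cannot be told apart from age or transplantation. In the transplant such a UMI was carried by 66.0% of podocytes, 58.3% of T cells (28 of 48) and 62.4% of all kept cells. T cells were those with Cd3e and Ptprc UMIs outside the endothelial gate. Median depths were 5092, 2797.5 and 6269.5 UMIs in that order. The labels do not say which cells of the transplant came from the donor or the host, and these shares do not tell them apart.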

How the data were processed

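Single-cell RNA of 4 mouse kidney libraries, 1 per group, was measured with the 10x 3′ v2 chemistry, per the labels' protocols. The authors deposited raw UMI counts (GRCm38, Cell Ranger 3.1.0, per the submitters' processing notes); per the file headers the transplant and E17.5 were made with 3.1.0, but P0 and E15.5 with 3.0.2. The libraries hold 57855356 (transplant), 92387054 (E15.5), 42430540 (E17.5) and 99068204 (P0) UMIs over 20672 genes, and kept cells have medians of 6269.5, 22734, 7261 and 9996.5 UMIs in that order. The treatment of strand, and of reads that match several near-identical genes, is not given in the sources used here, so values of Hspa1a and the class I genes are uncertain. A joined matrix of several libraries was not used here.

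Doublets were scored with Scrublet in scanpy 1.11.5 and left in, since the rule does not remove them; 29 of the 219 Ehd3 cells scored as doublets, and their removal is an alternative. UMIs were summed per library and cell group and tested in edgeR 4.0.16 (glmQLFit and glmQLFTest, filterByExpr, TMM, library as a block, Benjamini-Hochberg over all genes tested, adjusted p below 0.05; R 4.3.3), checked on simulated counts. Each library gives both cell groups, so library is the pairing by design. Thinning used random seed 1, and seed 2 as an alternative. Ratios between libraries were taken for genes with at least 20 UMIs, as summed CPM with exact conditional binomial 95% intervals (scipy 1.17.1); list medians add 0.5 counts, and a gene at 0 is bounded by a floor of 3 counts per library. PCR copies are removed by the UMIs, and intervals cover counting error only.

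Genes named are the markers and EHD genes; in the edgeR contrasts the 12 highest and 8 lowest folds among genes called, with 1 direction in all 4 libraries and a mean of at least 20 CPM; between libraries the 6 highest and 6 lowest by the interval bound nearest 1, with at least 50 UMIs; and the 3 highest and 3 lowest of each of 33 lists, 19 of programmes and 14 of other cell types. A few further list members were named after their values were seen, and some genes the rule names are not reported here. The cells and the lists were chosen with earlier results of these data known. The panel of 8 genes, the second seed and the fits without E15.5 in both narrower classes were added after seeing the data. Xist is not analysed here.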

Additional observations from a re-analysis of the deposited data

Results flagged for a closer look

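A transcript of the red fluorescent reporter tdTomato, which no comparison used, was found in 1 library. The Ehd3 cells of P0 held 54 tdTomato UMIs (110.4 CPM), and those of the transplant, E15.5 and E17.5 held none. At equal depth the P0 cells held 141 UMIs (114.3 CPM), in 63 of 95 cells, and podocytes of P0 carried the transcript in 292 of 471 cells. All 4 groups are labelled wild type.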

How the results depend on the processing

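Of 108 alternative values of the main results, 54 stayed within the stated bounds and 54 moved. Shares of Ehd3 cells in the transplant, E15.5, E17.5 and P0 were 0.892%, 0.0561%, 0.351% and 0.395% with all 3 endothelial genes required, 1.01%, 0.168%, 0.329% and 0.433% with at least 2 Ehd3 UMIs, 2.59%, 0.381%, 1.1% and 1.29% at equal depth, and 2.76%, 0.351%, 0.959% and 1.41% with the second thinning. With 0 Plvap UMIs they were 0.922% in the transplant, 0.329% at E17.5 and 0.482% at P0, and panel cells made up 0.0281% at E15.5.

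Calls against the Plvap endothelium numbered 944. They were 30 with all 3 endothelial genes, 93 with at least 2 Ehd3 UMIs, 261 at equal depth, 289 with the second thinning, 344 at equal depth without E15.5, 186 in panel cells, 236 in panel cells without E15.5, 405 against all other endothelial cells and 1702 with no filter on low counts. Without the library as a replicate block they were 227, and leaving out 1 library gave 412 (without the transplant) to 814 (without E17.5), with 470 without P0 and 576 without E15.5. The 964 calls against the arterial endothelium were 7, 59, 529, 419, 636, 127 and 249 under the first 7 of these settings in the same order, 1757 with no filter, 83 without the block and 247 (without P0) to 865 (without E17.5) with 1 library left out, 305 of them without the transplant. DESeq2 1.42.0 gave 939 and 1055. Between the 2 thinnings, 91 genes higher and 84 lower than in the Plvap endothelium were shared, of 149 and 112 with the first and 142 and 147 with the second. The elastin gene Eln was -1.54 against the Plvap endothelium with the first and 0.60 with the second.

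Genes at least 2-fold apart numbered 2902 for P0 against E15.5, 2539 for the transplant against P0 and 3155 against E17.5. With at least 100 UMIs required they numbered 1035, 704 and 929. The last 2 comparisons gave 1534 and 1589 with all 3 endothelial genes, 1477 and 1726 with at least 2 Ehd3 UMIs and 1295 and 1350 in panel cells, and the transplant against E17.5 gave 1883 at equal depth.

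Epithelial genes changed sign in panel cells and in the equal-depth class. Against the Plvap endothelium, Aqp2 was -0.84 in panel cells and -0.87 there without E15.5. Cldn4 was -0.69 in panel cells, -0.79 there without E15.5, -0.063 with the second thinning and -0.57 at equal depth without E15.5. Rhcg was -0.047 in panel cells without E15.5. Against the arterial endothelium, Aqp2 was -0.24 in panel cells with and without E15.5 and -0.016 at equal depth without E15.5. Cldn4 was -0.022 at equal depth, -0.36 with the second thinning and -0.21 at equal depth without E15.5, and Krt8 -0.025 and -0.024 with the 2 thinnings. The histone gene Hist1h2ap was 1.74 for P0 against E15.5 in panel cells, where E15.5 is 1 cell. The cause of these shifts was not tested.

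With 13 equal-depth cells at E15.5, genes at a few CPM there rest on under 5 UMIs. With 1 library per group, the spread between animals is not measured.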
